A study of Mus musculus with 6 samples.

Results

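The baseline described here is the RNA of the whole normal mouse eye at postnatal day 21. It consists of the 3 wild type libraries, labelled C57BL/6, of a series of 6 libraries; they were chosen by that genotype label alone. The other libraries of the series come from eyes lacking BC027072, a photoreceptor gene, and are not analysed here. Each library was made from total RNA of eye tissue kept in RNAlater and was sequenced on an Illumina HiSeq 2500. The files number the libraries 0, 1 and 2 without saying which labelled sample each is; here they are replicates 1, 2 and 3 in that order, which are only names. Nothing in the labels says that they are separate animals, so a standard deviation (SD, n = 3 throughout) measures the spread between these libraries, which may be technical. Sex is not labelled.

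A vertebrate eye focuses light with the cornea and lens onto the retina. The lens is packed with crystallins, small soluble proteins of the alpha, beta and gamma families that make its fibre cells transparent. Rods and cones of the retina turn light into a nerve signal with an opsin, a G protein (transducin), a phosphodiesterase and a cyclic-nucleotide-gated channel. The retinal pigment epithelium and the uvea hold melanin, and extraocular muscles, which are striated muscles with an unusually wide set of myosins, move the globe.

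Replicates 1, 2 and 3 held 21818830, 14343408 and 8443051 fragments assigned to genes. A gene's fragments are given as CPM, its fragments per 1000000 of that library. For comparisons between genes the fragments were divided by transcript length and scaled to a sum of 1000000, which gives TPM; a sum of TPM over genes is a share of transcripts, and a sum of fragments is a share of sequenced RNA. In all, 14539 genes reached 1 CPM in every library. The edgeR common biological coefficient of variation, the spread between libraries beyond counting error, was 6.77% over 14658 genes.

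The retina, lens, cornea, pigment and muscle markers that define an eye were all present. Lists for glands of the orbit, for epidermis of the eyelid and for fat cells were near 0, each at most 0.00179% of fragments in any library. The secreted gland proteins Dcpp1, Dcpp2 and Dcpp3 had 0 fragments in every library, which with a limit of 3 counts allows at most 6.73e-06% of all fragments for each. Xist, which coats the inactive X, had 17749, 13656 and 7763 fragments, while 4 genes of the Y chromosome together had 7, 2 and 1.

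**Figure D1:**
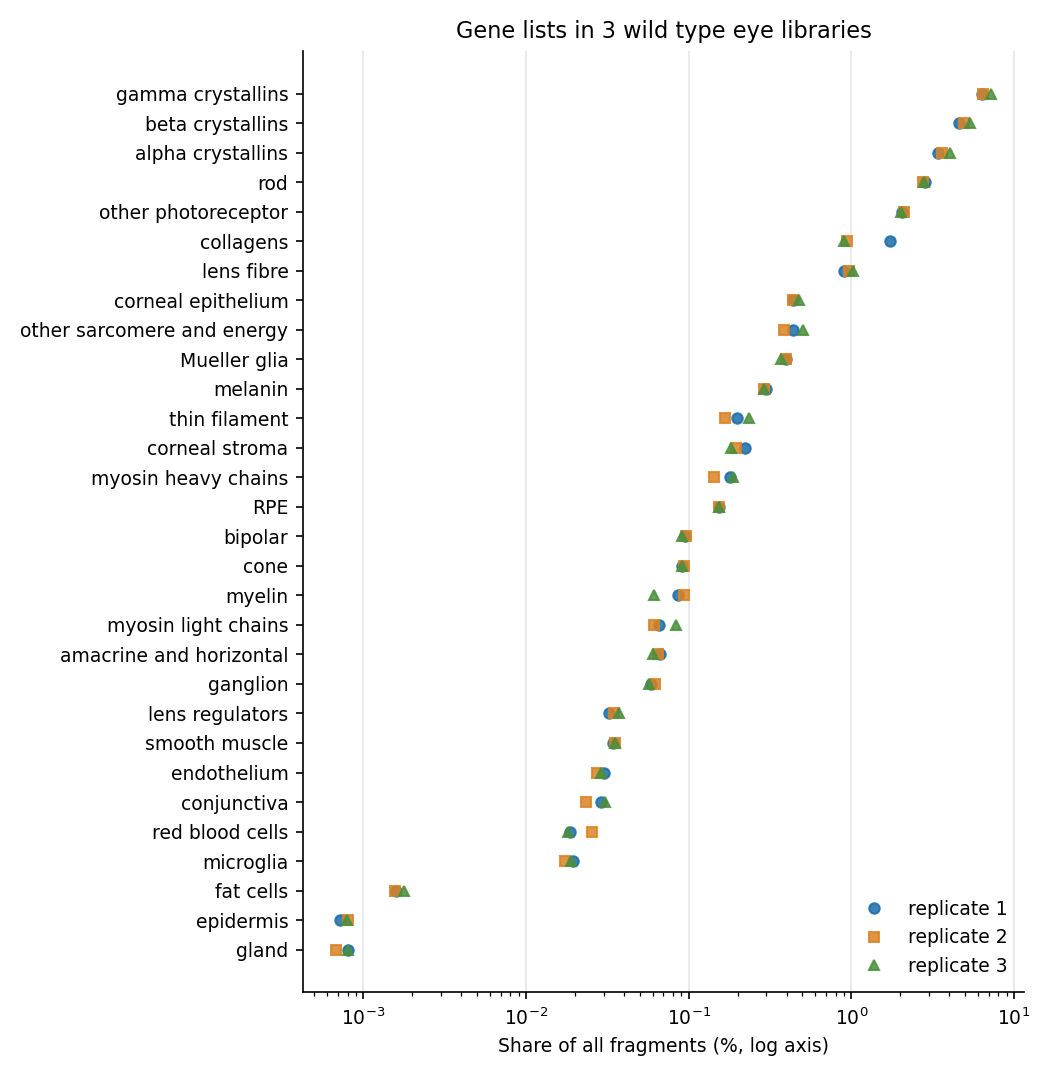
Share of all fragments (%, log axis) held by each of 30 gene lists, 1 point for each wild type library. Gamma, beta and alpha crystallins sit highest and the gland, epidermis and fat cell lists lowest; collagens are the list whose points lie farthest apart.

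Of the tissue lists compared, the lens list held the largest share of the eye's RNA. The 35 lens genes held 15.3, 16.0 and 17.7% of all fragments (16.3 ± 1.23%), and the 16 crystallins alone 14.39, 14.95 and 16.62%. Because crystallin messages are short, their share of transcripts was larger, and the lens list made up 37.0 ± 1.75% of all TPM. Photoreceptor genes came next with 4.97, 4.97 and 4.89% of fragments (4.94 ± 0.0473%). Skeletal muscle genes held 0.881, 0.755 and 1.01% (0.883 ± 0.129%), corneal genes 0.661, 0.631 and 0.662% (0.651 ± 0.0175%) and melanin genes 0.3, 0.289 and 0.289% (0.293 ± 0.00645%). The order of these tissues was the same in every library. In the deposited FPKM, which carry the authors' own scaling, photoreceptor, muscle, cornea and pigment genes held 2.17%, 0.59%, 0.417% and 0.155%, and the lens 40.7%. Exact (Clopper-Pearson) 95% intervals, which cover counting error only, were at most 0.0515 percentage points wide for the lens and at most 0.00726 for pigment. Such shares depend on both the number of cells of a type and the RNA in each cell, and in whole-eye libraries fewer cells cannot be told apart from less RNA per cell.

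Genes of Müller glia, the support cells of the retina, held 0.388 ± 0.0148% of fragments, against 0.0941 ± 0.0031% for bipolar cells, 0.0639 ± 0.00292% for amacrine and horizontal cells and 0.0593 ± 0.00245% for ganglion cells. The retinal pigment epithelium list held 0.153 ± 0.000702%, with the lowest relative spread of any list by share of fragments; by share of the deposited FPKM it held 0.118, 0.0938 and 0.131% in replicates 1, 2 and 3. Collagens held 1.19 ± 0.471%, smooth muscle 0.0348 ± 0.000398%, endothelium 0.0288 ± 0.00145%, microglia 0.0185 ± 0.00112% and red blood cells 0.0208 ± 0.00419%. These shares depend on how many genes a list has and do not measure cell numbers.

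Few genes carried much of the RNA. The 10 genes with the most fragments held 14.1% of them, the first 100 held 29.5%, and the first 814 held 50% of them. Of the 20 genes with the most fragments, 15 were crystallins. Others in that group included Gnat1 of rods, the nuclear RNA Malat1, Rpph1 (the RNA of RNase P) and Eef1a1 (a translation factor). Per length, the first 20 again held 15 crystallins, and among the others were Rpph1, Rmrp (the RNA of RNase MRP), Gnat1 and the fatty acid binding protein Fabp5. Every crystallin except Crygn was in both groups. Malat1 held 1.28, 1.36 and 1.27% of fragments and Rpph1 0.53, 0.592 and 0.593%, so RNAs that code for no protein ranked among lens and rod messages in every library.

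By fragments and by TPM the most abundant transcript was Cryaa, the alpha A crystallin, a chaperone of the lens encoded at chr17:31814890-31818669 (mm9). It held 2.73, 2.87 and 3.17% of fragments and had 41520.5, 42996 and 45829 TPM. Its partner Cryab, which is also made in muscle and glia, had 10444, 11122 and 12098 TPM, so Cryaa made up 79.5 ± 0.395% of alpha crystallin transcripts. By both measures Cryaa was the highest gene in all 3 libraries. In the deposited FPKM, Rpph1 was higher in every library, at 54003, 133386 and 59792 against 30928, 48816 and 31872 for Cryaa, and Crygb was higher than Cryaa in 2 of 3 libraries.

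Among beta crystallins, structural proteins of the fibre cells, a pair stood above the rest. Cryba1 had 33241, 37915 and 38191 TPM and Crybb2 had 33997, 35933 and 38701 TPM. Their ranges overlapped, and Cryba1 was the higher in 1 of 3 libraries, so their order is not settled by these data. Crybb3 followed at 14026 ± 782 TPM, then Crybb1 at 10751 ± 251, Cryba4 at 10298 ± 551 and Cryba2 at 9522 ± 392. Crybb3 lay above the next member in every library with no overlap, while the ranges of Crybb1 and Cryba4, and of Cryba4 and Cryba2, overlapped.

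The gamma crystallins are the densest-packing crystallins, found mostly in the fibres of the lens nucleus. Genes A to E lie side by side within 54.8 kb at chr1:65095131-65149937 (mm9), and Crygf lies on the same chromosome at chr1:65973096-65974878. Crygb led with 39981, 40605 and 42569 TPM, above every other member in every library. Crygd had 32638, 33808 and 36503, Cryge 31203, 28373 and 32961 and Crygc 29229, 29040.5 and 31752 TPM. In the deposited FPKM, Crygb was above Crygd, Cryge and Crygc in replicates 1 and 3 and below all of them in replicate 2. By TPM the ranges of Crygd and Cryge overlapped, as did those of Cryge and Crygc. Cryga averaged 20389 ± 1439 TPM and Crygs, the gamma crystallin made outside the cluster, 19785 ± 1008, also with overlapping ranges. Crygf had 11132 ± 589 TPM, and Crygn, the divergent member, was far below at 446 ± 6.49. Some copies among Cryga to Crygf are alike enough that reads could be split between them. Over 15 pairs of their GENCODE transcripts, identity ran from 74.5% to 95.9%. The lowest pair was the neighbours Crygc and Crygd. The top pair was Cryge and Crygf, and the levels of these copies are therefore uncertain relative to each other.

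**Figure D2:**
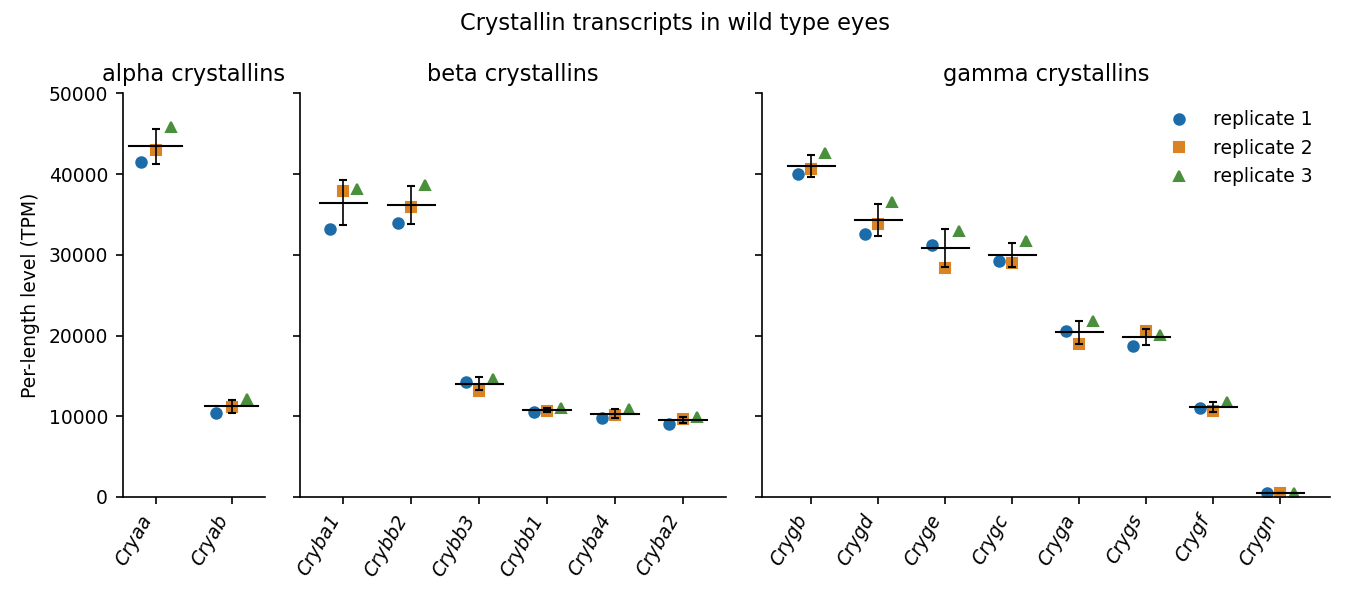
Per-length level (TPM, axis from 0) of the 16 crystallins, with 1 symbol for each wild type library; the horizontal line is the mean and the bar is 1 SD of 3 libraries. Cryaa and Crygb are highest, Cryba1 and Crybb2 overlap, and Crygn is close to the axis.

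The stretches just before the starts of the clustered gamma crystallin genes are shown because these copies, which share sequence, ranged from 11132 to 41052 TPM. They are RefSeq sequences of the build GRCm38.p6, 110 bases ending at the annotated start, 5′ to 3′ on the gene's strand. Capitals mark TTTTGTG and TATATA, which were picked as motifs after these stretches had been read.
Crygb: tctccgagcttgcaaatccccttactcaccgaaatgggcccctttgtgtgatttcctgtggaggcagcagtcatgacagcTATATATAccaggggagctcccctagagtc
Crygd: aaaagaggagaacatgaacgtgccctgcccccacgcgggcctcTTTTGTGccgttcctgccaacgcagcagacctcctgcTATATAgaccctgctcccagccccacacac
Cryge: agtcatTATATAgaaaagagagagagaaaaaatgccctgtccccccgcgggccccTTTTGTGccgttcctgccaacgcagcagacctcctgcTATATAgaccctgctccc
Crygc: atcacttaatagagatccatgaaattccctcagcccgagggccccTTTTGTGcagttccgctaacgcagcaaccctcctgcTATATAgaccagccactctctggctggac
Cryga: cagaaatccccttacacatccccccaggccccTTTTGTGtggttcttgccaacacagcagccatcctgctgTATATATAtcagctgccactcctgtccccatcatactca
Crygf: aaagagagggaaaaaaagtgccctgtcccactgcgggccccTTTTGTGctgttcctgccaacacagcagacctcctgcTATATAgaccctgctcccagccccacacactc
Their positions are chr1:65082291-65082400, minus strand, for Crygb; chr1:65063441-65063550, minus strand, for Crygd; chr1:65051164-65051273, minus strand, for Cryge; chr1:65073533-65073642, minus strand, for Crygc; chr1:65103364-65103473, minus strand, for Cryga; and chr1:65926412-65926521, plus strand, for Crygf. TATATA, on either strand of the 250 bases before the start, was in 7 of 8 gamma crystallin entries, against 6.19% of all 27025 genes with an entry. TTTTGTG was in 5 of 8, against 5.14% of all genes; Crygb, the highest of the cluster, has no exact copy of TTTTGTG in this window. A match is a string of letters and shows no binding.

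Behind the crystallins stood the genes that shape a lens fibre, with 0.897, 0.963 and 1.03% of fragments. Lim2, a fibre membrane protein, had 2009, 1924 and 2211 TPM, and Mip, the water channel aquaporin 0, had 1724, 2043 and 1991 TPM, with overlapping ranges. Lgsn, a protein related to glutamine synthetase, averaged 1419 ± 52.6 TPM. The beaded filament proteins Bfsp2 and Bfsp1 averaged 1379.9 ± 47.6 and 1239 ± 64.7 TPM. The connexin Gja3, which couples fibre cells, was lower at 100.3 ± 9.56 TPM. Lens transcription factors were lower still. Maf had 58.6, 67.2 and 67.4 TPM and Prox1 59.5, 62.5 and 63.5 TPM, and their ranges overlapped. Hsf4 averaged 31.6 ± 2.75 TPM and Sox1 13.4 ± 1.02. Foxe3, the factor of the lens epithelium, rested on 53, 19 and 29 fragments.

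Maf proteins are known to activate crystallin genes through elements that hold TGCTGA. The 3 highest alpha and beta crystallins with that string within 110 bases of the start are shown, with the string, or its reverse complement TCAGCA, in capitals.
Cryaa: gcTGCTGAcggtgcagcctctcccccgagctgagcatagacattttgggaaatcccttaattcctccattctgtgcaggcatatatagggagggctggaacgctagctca
Cryba1: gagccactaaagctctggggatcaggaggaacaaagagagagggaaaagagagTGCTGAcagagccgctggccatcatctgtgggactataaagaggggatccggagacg
Crybb3: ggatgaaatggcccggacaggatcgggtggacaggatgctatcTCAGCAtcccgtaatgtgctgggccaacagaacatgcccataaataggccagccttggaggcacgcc
These lie at chr17:31677821-31677930, plus strand, for Cryaa; chr11:77725294-77725403, minus strand, for Cryba1; and chr5:113081585-113081694, minus strand, for Crybb3 (RefSeq, GRCm38.p6). TGCTGA on either strand was in 10 of 15 crystallin entries and 6 of 16 entries of the other lens genes, against 18.0% of all genes. It was also in 4 of 10 corneal entries, and in 9 of 39 photoreceptor entries.

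Rods led the retina. Gnat1, the alpha subunit of rod transducin, had 5100.2, 4847 and 4994 TPM. Sag, the rod arrestin that ends the light response, had 2319, 2227 and 2187 TPM, and Pde6g, the inhibitory subunit of the rod phosphodiesterase, 1722, 1689.5 and 1711. The ranges of neighbours in this order did not overlap. Gngt1, the gamma subunit of rod transducin, averaged 938 ± 52.8 TPM. The catalytic phosphodiesterase subunits Pde6b and Pde6a averaged 731 ± 37.0 and 528 ± 29.2 TPM. The opsin kinase Grk1 had 283 ± 10.2 TPM, the channel subunit Cnga1 230.3 ± 12.7 and the exchanger Slc24a1 214 ± 0.557.

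Cngb1, the other subunit of the rod channel, was picked out after its values were seen. Its gene row listed 2, 1 and 0 fragments, while Cnga1 had 7879, 5328 and 2938. The isoform table resolved this. The isoform NM_001195413 at chr8:97762943-97830485 (mm9) had 4382, 2969 and 1720 fragments, equal to 58.0, 59.0 and 55.9 TPM. The isoform NM_145601, which the files place at chr5:143200558-143579066, had the 2, 1 and 0 fragments of the gene row. The gene row therefore holds the chromosome 5 record alone and misses the chromosome 8 gene. In all, 23 genes had a gene row that differed by more than 1 fragment from the sum of their isoforms in some library. Of the listed genes, Hba-a1, an alpha globin, was the other one affected, with 871 fragments in the gene row and 1454 over its isoforms in replicate 1.

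Cone genes were scarcer, at 0.0908, 0.0931 and 0.0915% of fragments against 2.82, 2.77 and 2.78% for the 11 rod genes. Opn1sw, the short-wavelength opsin, had 194, 199.7 and 203 TPM and Opn1mw, the middle-wavelength opsin, 123, 113 and 113. Opn1sw was the higher in every library, at 1.72 ± 0.117 times Opn1mw. By the deposited FPKM it was the higher in 2 of 3 libraries, at 91.4, 91.6 and 123 against 83.1, 102 and 76.4 for Opn1mw. Pde6h, the inhibitory subunit of the cone phosphodiesterase, had 192, 181 and 189.9 TPM, Gngt2 (cone transducin gamma) 131 ± 5.61, Gnb3 (cone transducin beta) 123 ± 7.83 and the cone arrestin Arr3 115 ± 9.06. Ranges of Gngt2 and Gnb3, of Gnb3 and Opn1mw, and of Opn1mw and Arr3 overlapped. The channel subunits Cnga3 and Cngb3 were the lowest cone genes, at 5.35 ± 0.273 and 7.96 ± 0.727 TPM.

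The rod form exceeded the cone form in each of 7 matched pairs and in every library, but by very different factors. Per length, Gnat1 was 56.9, 50.6 and 58.8 times Gnat2, and Cnga1 was 45.3, 42.3 and 41.7 times Cnga3. Pde6a and Pde6b together were 33.2, 32.5 and 33.3 times Pde6c. The rod exchanger Slc24a1 was 20.6, 18.4 and 24.2 times Slc24a2, which neurons also make, and Sag was 19.0, 18.9 and 20.9 times Arr3. The smallest factors belonged to the small subunits: 8.97, 9.33 and 9.01 times for Pde6g over Pde6h and 6.83, 8.01 and 6.72 times for Gngt1 over Gngt2. The factors of the widest and the narrowest pair differed by more than the spread between libraries, at 55.4 ± 4.3 for transducin alpha and 7.19 ± 0.718 for transducin gamma.

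**Figure D3:**
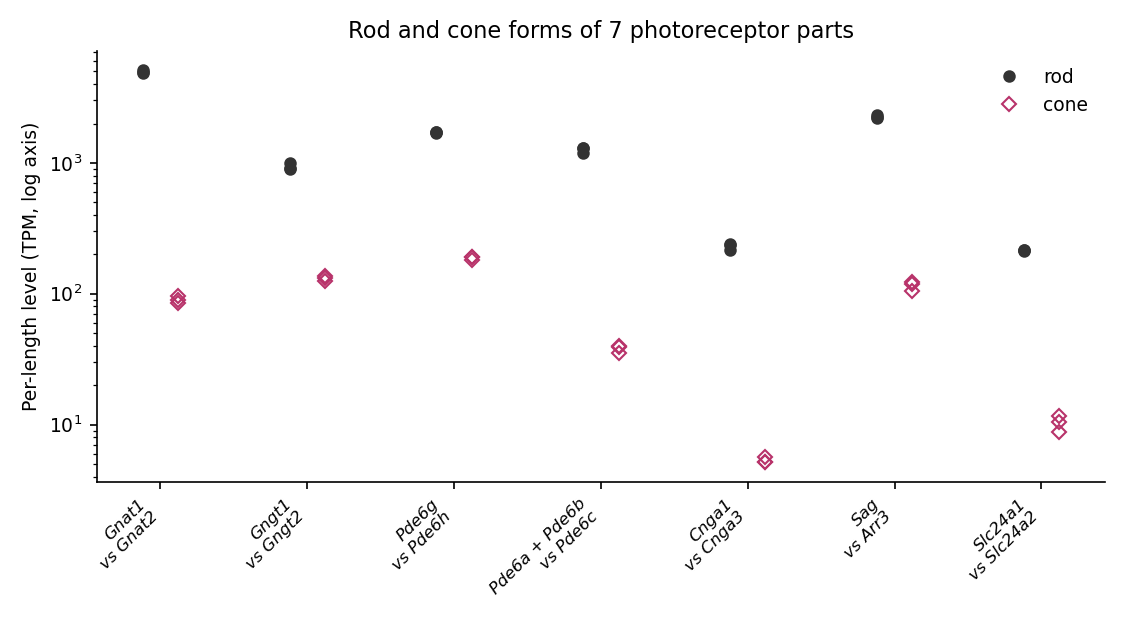
Per-length level (TPM, log axis) of the rod form (filled) and the cone form (open) of 7 photoreceptor parts, 1 symbol for each of 3 wild type libraries. The rod symbols lie above the cone symbols in every pair; the gap is widest for Gnat1 over Gnat2 and narrowest for Gngt1 over Gngt2.

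The list of other photoreceptor genes, outside the rod and cone lists, held 2.05, 2.11 and 2.02% of fragments over 35 genes. Pdc, phosducin, which binds transducin, had 1798, 1965 and 1629 TPM. Prph2, a tetraspanin of the disc rim, had 1725, 1635 and 1535 TPM; it was below Pdc in every library although the ranges overlapped. By the deposited FPKM the order was turned in every library, with Prph2 at 968, 1168 and 959 and Pdc at 707, 587 and 939. Its partner Rom1 averaged 1189 ± 44.8 TPM and the calcium sensor recoverin, Rcvrn, 839 ± 22.0. Rcvrn varied by 0.607% between libraries in CPM. The rod-fate factor Nrl averaged 758 ± 45.8 TPM, Crx, the factor of both photoreceptor types, 389.7 ± 24.5, and Nr2e3, which acts with Nrl, 243 ± 10.6. BC027072, which the other libraries of the series lack and which encodes a protein of the photoreceptor cilium, had 5854, 3667 and 2251 fragments and 95.9, 90.1 and 90.4 TPM at chr17:72092895-72102225 (mm9). It ranked 26 of 35 per length in this list, and its range overlapped that of the next gene, Impg2, a protein of the matrix between photoreceptors. The list varied more than the rod list: 3.79% was the median coefficient of variation of its 35 genes at 50 CPM or more, and 2.74% that of 10 rod genes. Over all 4344 genes at that level it was 4.85%. Counting error alone gave medians of 1.49%, 0.812% and 2.94% for these 3 sets. Part of the gap to all genes is therefore counting error.

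CRX binds the string TAATCC. The 3 highest photoreceptor genes with it within 110 bases of the start are shown, with the string, here on the reverse strand as GGATTA, in capitals.
Sag: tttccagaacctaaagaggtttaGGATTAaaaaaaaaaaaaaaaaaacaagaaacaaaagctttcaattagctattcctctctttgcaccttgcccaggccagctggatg
Gngt1: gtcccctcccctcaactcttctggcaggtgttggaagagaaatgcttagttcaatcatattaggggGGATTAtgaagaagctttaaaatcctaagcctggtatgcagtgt
Rbp3: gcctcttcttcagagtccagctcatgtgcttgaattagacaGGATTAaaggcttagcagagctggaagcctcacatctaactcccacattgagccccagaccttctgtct
These lie at chr1:87803570-87803679, plus strand, for Sag; chr6:3993898-3994007, plus strand, for Gngt1; and chr14:33953893-33954002, plus strand, for Rbp3, the retinoid-binding protein between photoreceptors and pigment epithelium (RefSeq, GRCm38.p6). TAATCC on either strand was in 15 of 39 photoreceptor entries, against 7.21% of all genes. It was also in 2 of 6 melanin entries, and in 2 of 38 muscle entries.

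Opsins outside the photoreceptors were measured as well. Rgr, an opsin of the pigment epithelium and Müller glia that regenerates chromophore, had 429, 429 and 421 TPM, above both cone opsins in every library. Rrh, peropsin of the pigment epithelium, averaged 24.3 ± 1.93 TPM. Opn4, the melanopsin of light-sensing ganglion cells, averaged 4.45 ± 0.395 TPM and Opn3 4.27 ± 0.154, with overlapping ranges. Opn5 rested on 2, 1 and 1 fragments.

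In the inner retina, the bipolar cell list was led by Trpm1, the channel of ON bipolar cells, at 202 ± 4.97 TPM, followed by Pcp2 at 133 ± 9.44, Gng13 at 112 ± 13.8 and Prkca at 45.2 ± 3.77. Pcp2 and Gng13 act in G protein signalling and Prkca is protein kinase C alpha. Amacrine and horizontal genes were led by the calcium-binding Calb2 at 210.2 ± 7.38 TPM, the glycine transporter Slc6a9 at 74.1 ± 7.82, Gad1, which makes GABA, at 72.2 ± 6.39, and the gap junction gene Gjd2 at 47.7 ± 3.19. Ganglion cell genes were led by the neurofilament Nefl at 218 ± 15.2 TPM, Sncg at 96.2 ± 6.21, Thy1 at 77.8 ± 0.0141 and Nefh at 30.2 ± 4.07. The Müller list was led by Glul, glutamine synthetase, with 1295, 1224 and 1096 TPM. Dkk3, a secreted protein, averaged 529 ± 15.5 TPM, the retinoid carrier Rlbp1 283 ± 19.7 and the carbonic anhydrase Car14 132 ± 11.3.

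The pigment epithelium list was led by Ttr, the thyroxine and retinol carrier transthyretin, with 840.0, 838 and 829.8 TPM, then Rgr. Rpe65, the isomerase of the visual cycle, averaged 197 ± 17.4 TPM and Rdh5 94.5 ± 3.23. Melanin genes formed a steep ladder. Dct, dopachrome tautomerase, had 830.4, 824 and 768 TPM, and Pmel, the fibril protein of the melanosome, 747, 673 and 662. By the deposited FPKM, Dct was above Pmel in 1 of 3 libraries, at 372, 378 and 445 against 401, 452 and 416. Tyrp1 averaged 415 ± 20.2 TPM and Mlana, a melanosome membrane protein, 217 ± 8.7. Tyr, tyrosinase, the enzyme that starts melanin synthesis, averaged 61.9 ± 1.73 TPM, so Dct, Pmel, Tyrp1 and Mlana all lay above it in every library. The transporters Slc24a5, Oca2 and Slc45a2 averaged 53.5 ± 5.03, 23.6 ± 1.9 and 19.7 ± 2.41 TPM, and Rab38, which sends cargo to melanosomes, 25.6 ± 1.33. Mitf, the master factor of pigment cells, averaged 19.2 ± 1.59 TPM and the receptor Gpr143 11.4 ± 0.92. The melanin list was steady in fragments: its genes at 50 CPM or more had a median coefficient of variation of 3.14%.

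MITF binds CATGTG in pigment gene promoters. The 3 highest melanin genes with it within 110 bases of the start are shown, with the string, or its reverse complement CACATG, in capitals.
Tyrp1: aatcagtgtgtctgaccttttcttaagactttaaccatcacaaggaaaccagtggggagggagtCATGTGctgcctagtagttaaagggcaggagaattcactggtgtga
Tyr: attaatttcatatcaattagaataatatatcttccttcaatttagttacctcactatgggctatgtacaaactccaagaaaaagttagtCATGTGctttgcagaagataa
Slc24a5: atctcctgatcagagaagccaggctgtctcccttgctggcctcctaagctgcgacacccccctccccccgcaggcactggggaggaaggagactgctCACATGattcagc
These lie at chr4:80834103-80834212, plus strand, for Tyrp1; chr7:87493513-87493622, minus strand, for Tyr; and chr2:125068017-125068126, plus strand, for Slc24a5 (RefSeq, GRCm38.p6). CATGTG on either strand was in 5 of 6 melanin entries, against 13.8% of all genes. Only these 6 of the 11 melanin genes had an entry. The string was also in 4 of 16 entries of the lens genes other than crystallins, 7 of 39 photoreceptor entries and 1 of 18 collagen entries.

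Striated muscle myosins and troponins were led by fast forms, and the set of myosin heavy chains was wide. The heavy chains Myh1, Myh2, Myh3, Myh4, Myh8 and Myh13 lie in 1 cluster at chr11:66891802-67185004 (mm9). Myh4, the fastest (IIb) chain, had 151, 133 and 171 TPM, and Myh1, the IIx chain, 138, 90.3 and 136. Myh3, the embryonic chain, had 91.9, 66.4 and 82.6 TPM and Myh2, the IIa chain, 71.6, 55.7 and 63.2, so the embryonic chain was above an adult fast chain in every library, although the ranges overlapped. Myh15, an ancient chain retained in eye muscle, had 44.9, 36.3 and 41.6 TPM and Myh13, the extraocular chain, 12.4, 18.8 and 17.1. The perinatal chain Myh8 averaged 8.58 ± 0.892 TPM and the slow chain Myh7 6.99 ± 2.7, with overlapping ranges. Myh7b averaged 1.86 ± 0.398 TPM and the cardiac chain Myh6 rested on 10, 0 and 2 fragments. The adult fast chains Myh1, Myh2 and Myh4 together were 3.6, 3.76 and 4.02 times the sum of Myh3 and Myh8.

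Fast forms also led the troponins and the myosin light chains in every library. Among alpha actins, the skeletal form Acta1 had 952, 703 and 1072 TPM, which was 6.87 ± 0.462 times the cardiac form Actc1. The fast troponins Tnnt3, Tnnc2 and Tnni2 averaged 520.3 ± 65.2, 396 ± 52.5 and 389.6 ± 57.0 TPM. They were 8.53 ± 1.25, 13.6 ± 1.03 and 11.3 ± 2.49 times the slow forms Tnnt1, Tnnc1 and Tnni1. The light chains Myl1 and Mylpf averaged 781 ± 109 and 699.9 ± 115 TPM, and the slow light chain Myl2 was at 33.9 ± 3.13. Among genes of energy supply and calcium handling, creatine kinase Ckm averaged 446 ± 78.2 TPM, the calcium pump Atp2a1 412 ± 77.1, myoglobin Mb 365 ± 47.8 and the enolase Eno3 275 ± 21.1. Muscle genes moved together: 40 of 46 were lowest in replicate 2, where 26.7% of all genes at 50 CPM or more were lowest. Only 6 heavy chains, 2 light chains, 7 thin filament genes and 13 of the other muscle genes were at that level. By share of the deposited FPKM, 33 of 46 were lowest in replicate 2. Myh13 went the other way, with its lowest level in replicate 1.

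Myogenic factors bind CAGCTG among other E-boxes. The 3 highest muscle genes with it within 110 bases of the start are shown, with the string in capitals.
Mylpf: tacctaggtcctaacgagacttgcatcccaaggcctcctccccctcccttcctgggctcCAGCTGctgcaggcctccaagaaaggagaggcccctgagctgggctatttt
Atp2a1: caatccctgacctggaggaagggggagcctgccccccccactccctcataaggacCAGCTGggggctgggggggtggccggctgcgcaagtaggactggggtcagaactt
Myh4: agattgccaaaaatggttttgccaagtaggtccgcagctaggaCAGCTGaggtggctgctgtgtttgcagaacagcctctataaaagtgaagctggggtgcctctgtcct
These lie at chr7:127211498-127211607, plus strand, for Mylpf; chr7:126463074-126463183, minus strand, for Atp2a1; and chr11:67237702-67237811, plus strand, for Myh4 (RefSeq, GRCm38.p6). CAGCTG was in 15 of 38 muscle entries, against 14.7% of all genes. It was also in 5 of 15 crystallin, 10 of 39 photoreceptor and 2 of 6 melanin entries, and in 1 of 18 collagen entries.

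The 10 listed genes of the corneal epithelium held 0.439, 0.436 and 0.479% of fragments. The 8 of the corneal stroma and endothelium held 0.222, 0.195 and 0.183%. Type I collagen was counted in the collagen list alone, so these shares do not rank the layers of the cornea. Krt12, the keratin of the corneal epithelium, had 1799, 1824 and 1928 TPM and was 59.97 ± 2.86% of the transcripts of 15 keratins. Aldh3a1, the corneal aldehyde dehydrogenase, had 1668, 1668 and 1609 TPM. Krt5, the basal keratin, averaged 409 ± 59.7 TPM, and its usual partner Krt14 only 43.3 ± 6.21. Krt15, a basal keratin of the limbus, averaged 210.1 ± 33.5 TPM, Krt6a 203 ± 19.9 and Krt13, a keratin of the conjunctiva, 164 ± 17.1. The surface proteins Perp and Slurp1 averaged 188 ± 12.1 and 172 ± 6.55 TPM. In the stroma, the proteoglycans Fmod, Lum and Kera averaged 275 ± 62.4, 223 ± 14.0 and 105 ± 14.6 TPM, and Angptl7, a secreted factor of the stroma, 178 ± 55.4. Epidermal keratins were low, with Krt10 at 4.42 ± 0.55 and Krt1 at 1.16 ± 0.291 TPM.

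**Figure D4:**
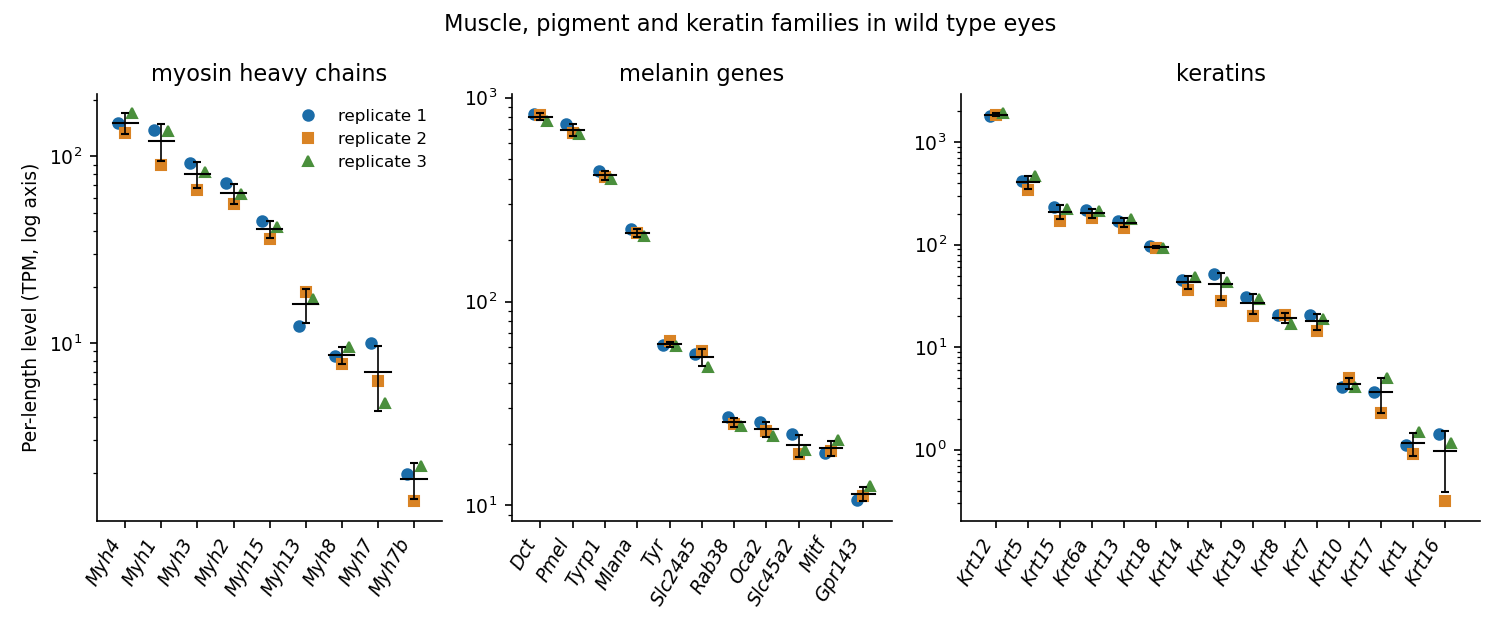
Per-length level (TPM, log axes) of the myosin heavy chains, the melanin genes and the keratins, highest first, with 1 symbol for each wild type library; lines are means and bars 1 SD of 3 libraries, and Myh6, below 0.1 TPM, is not drawn. Most heavy chains are lowest in replicate 2, the melanin genes differ little between libraries, and Krt12 stands above every other keratin.

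The libraries were alike for most genes but not for all. The median coefficient of variation was 4.85% over the 4344 genes at 50 CPM or more, where counting error alone gave a median of 2.94%. The highest library exceeded the lowest by 1.5 times or more for 51 of them, or 1.17%. Of these, 42 were highest in replicate 1, 4 in replicate 2 and 5 in replicate 3. Every pair of libraries differed by more than sampling noise. The chi-square per degree of freedom was 9.61 for replicates 1 and 2, 7.48 for 1 and 3 and 3.89 for 2 and 3. This measure grows with library size, so it does not rank the pairs by likeness.

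Replicate 1 stood apart in extracellular matrix genes. The 12 genes with the largest coefficient of variation were all highest there. Col1a1, a chain of type I collagen, had 4996, 1748 and 1693 CPM in replicates 1, 2 and 3, a coefficient of variation of 67.2%. Its partner Col1a2 had 4713, 2381 and 2122 CPM. Col12a1 and Col6a3, chains of collagens that sit on or near the fibrils, had 1026, 395 and 338 and 588, 236 and 227 CPM, and Col5a1 355, 187 and 172. Replicate 1 had 2.9 times the mean of the other libraries for Col1a1 and 2.09 times for Col1a2. The glycoprotein genes Fn1, Tnc and Thbs4 (fibronectin, tenascin C and thrombospondin 4) had 388, 163 and 176, 90.4, 43.3 and 41.2 and 182, 76.1 and 74.7 CPM. The matrix genes Fndc1, Svep1 and Cilp2 and the receptor Lrp1 completed the 12, at 2.43, 2.37, 2.1 and 2.02 times the mean of the others.

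Of 24 collagen genes, 22 of them at 50 CPM or more, 23 were highest in replicate 1, where 33.4% of all genes at 50 CPM or more were highest. Of the 24, 8 exceeded the mean of the other libraries by 1.5 times or more, as did 0.829% of all genes. The collagen list held 1.73, 0.942 and 0.896% of fragments, so its mean fell to 0.919% without replicate 1, against 1.19% with all 3. The median collagen gene in replicate 1 was at 1.22 times the mean of the others, against 0.999 for all genes at 50 CPM or more. Some chains moved less: the basement membrane chain Col4a1 had 784, 646 and 718 CPM and Col9a1 118, 125 and 108. Col2a1 had 49.1, 39.9 and 39.6 CPM, whereas Col11a1, like Col2a1 a cartilage-type chain, had 162, 94.1 and 74.6. In the corneal stroma, Fmod had 555, 389 and 401 and Angptl7 279, 181 and 168 CPM, while Kera had 125, 124 and 101 and Lum 254, 279.8 and 257. The conjunctival goblet cell mucin Muc5ac, noticed after its values were seen, had 156, 11 and 8 fragments. Without replicate 1 the common coefficient of variation was 5.7%.

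Composition of the transcripts moved with the libraries too. Genes were split by the GC content of their GENCODE transcripts into 5 equal groups. The median log2 ratio of replicate 1 to the mean of the others was -0.071 in the group of lowest GC and 0.070 in that of highest GC. The same ratio of replicate 2 was 0.13 in the group of lowest GC and -0.065 in that of highest GC. The 12 most variable genes had a median GC content of 53.4%, against 49.1% for all genes at 50 CPM or more. Their median length was 7706 bases, against 3704. Across 5 groups by length the median ratio of replicate 1 stayed between -0.020 and 0.016. The part of these shifts in the ratios of the matrix genes was not tested.

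Replicates 2 and 3 stood apart in other genes. Beta-s, a beta globin, had 117, 167 and 113 CPM, highest in replicate 2, where muscle was lowest. Mbp, a protein of compact myelin, had 243, 241 and 177 CPM and Cnp, a myelin enzyme, 66.9, 76.6 and 46.1, both lowest in replicate 3, whereas Pmp22, a myelin protein of peripheral nerve, had 115, 117 and 120.0. Of 11 myelin genes, 4 of them at 50 CPM or more, 8 were lowest in replicate 3, where 42.8% of all genes at that level were lowest. By fragments replicate 3 was highest for all 16 crystallins and for 32 of 35 lens genes, against 20.3% of all genes at 50 CPM or more. Of the 6 lens transcription factors, 2 were at that level. Photoreceptor, melanin and pigment epithelium lists moved little beside these in fragments: their shares differed between the highest and the lowest library by 1.02, 1.04 and 1.01 times, against 1.15 for lens, 1.34 for muscle, 1.54 for myelin and 1.94 for collagens. The deposited FPKM did not keep this order. By share of FPKM the lens differed by 1.03 times between the highest and the lowest library, photoreceptors by 1.17, melanin genes by 1.35 and the pigment epithelium by 1.4, against 1.28 for muscle, 1.28 for myelin and 2.32 for collagens. Crystallins held 40.4, 40.3 and 39.1% of FPKM in replicates 1, 2 and 3 and were lowest in replicate 3, and 3 of 16 were highest there, so their high share in replicate 3 holds for fragments and not for FPKM. Collagens held 0.432, 0.25 and 0.186%, highest in replicate 1, myelin genes 0.045, 0.0372 and 0.035%, lowest in replicate 3, and muscle genes 0.581, 0.522 and 0.666%, lowest in replicate 2, as by fragments.

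**Figure D5:**
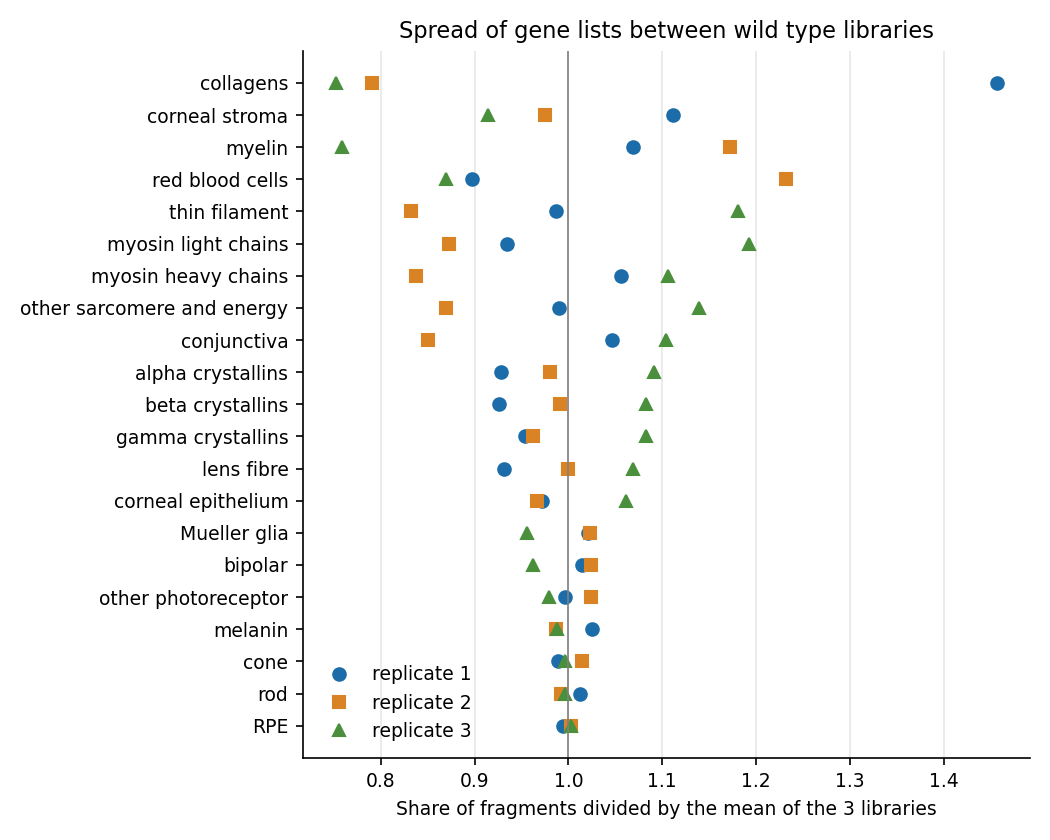
Share of fragments of each gene list in each wild type library, divided by the mean of the 3 libraries; the grey line is equality. Collagens are highest in replicate 1, myelin lowest in replicate 3, muscle lists lowest in replicate 2 and crystallins highest in replicate 3, while the rod, cone, melanin and RPE (retinal pigment epithelium) points lie close to 1.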

How the data were processed

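The submitters' processing notes name the aligner TopHat2 2.0.12, Cufflinks 2.2.1, the quantifier Cuffdiff 2.2.1 and the mouse build mm9. The authors deposited, per the file headers, estimated counts (fragments) per gene and per isoform for each library, and FPKM (fragments scaled to transcript length and library size) with their own scaling. Of the deposited gene counts 98.6% were whole within 1e-06, and all were rounded. The estimate had failed for 4 of 22558 genes and 6 isoforms in a wild type library, and these were left out. Transcript lengths came from the deposited isoform table. Library numbers 0 to 2 in the files are named replicates 1 to 3, in that order.

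From these counts were computed CPM, shares of fragments, and TPM, in which a gene's fragments were divided by the length of its isoforms weighted by their fragments, with no correction for fragment size. Libraries were compared by SD, by range and by the common dispersion of edgeR 4.0.16 (TMM, intercept alone, at least 10 fragments in every library), tested on simulated data. No contrast between groups was made. A reference of a later build gave only GC content, gamma crystallin transcript identity and promoter entries, which matched 235 of 326 list genes by symbol. Counts with no strand stated cannot separate overlapping genes. The authors' counting could also split reads between near-identical copies.

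The members and the 34 gene lists were chosen with earlier results of these data known. The genes named are the 20 highest by CPM and by TPM, the 4 highest of each list, all crystallins, opsins, myosin heavy chains and melanin genes, the 12 with the largest coefficient of variation at a mean of 50 CPM or more, BC027072 and Xist. A few others are named as examples and were chosen after their values were seen. Some genes that this rule covers are not reported here. Tfap2a, Tfap2b, Bpifa2 and Flg were not analysed here. The alternatives were other scalings (TMM, DESeq2 1.42.0 size factors), TPM, the deposited FPKM, a filter, no rounding, a total without crystallins and leaving out each library.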

Additional observations from a re-analysis of the deposited data

How the results depend on the processing

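The shares kept the order lens, photoreceptor, muscle, cornea, pigment by TPM and by the deposited FPKM, but their size depends on the unit. The order was also kept with the filter and without rounding, which hardly change the counts. TMM factors, DESeq2 factors and a total without crystallins divide all lists of a library by the same number. They cannot change the order within a library. As a percent of TPM, the lens held 37.0, photoreceptor genes 3.27, muscle 0.718, cornea 0.576 and pigment 0.235. As a percent of the deposited FPKM they held 40.7, 2.17, 0.59, 0.417 and 0.155; the cause of the gap between FPKM and TPM was not tested. Without crystallins in the total, photoreceptor, muscle, cornea and pigment genes held 5.83%, 1.04%, 0.769% and 0.346% of the rest. Under TMM or DESeq2 size factors, the filter and no rounding, the 5 shares moved by less than 1 SD. The size factors nearly average out over the libraries, and the filter and rounding hardly change the counts. These settings could therefore hardly move a mean share. Leaving out 1 library gave 15.6 to 16.8% for the lens, 4.93 to 4.97% for photoreceptors, 0.818 to 0.947% for muscle, 0.646 to 0.661% for cornea and 0.289 to 0.295% for pigment, and 14621 to 14669 detected genes. Detected genes numbered 13464 to 14658 under the other settings. The common coefficient of variation was 6.87% with no filter, 6.88% with library totals, 9.19% as the median of DESeq2 dispersions, and 5.7 to 7.43% with 1 library left out. Of 34 lists, 8 had another leading gene by FPKM, 7 by CPM, and 4 when 1 library was left out, among them Crybb2 in place of Cryba1, Col1a2 in place of Col1a1 and C1qa in place of C1qc. The collagen list without replicate 1, and the myelin list, were added after the data had been seen; myelin held 0.0735 to 0.0901% with 1 library left out. No paired analysis was possible because a single group was described and no test between groups was made. The gland and epidermis lists, with few fragments, are limited by depth.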

Other observations

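Minor cell types of the wild type eye were measurable as well. Genes of complement C1q, which mark microglia and macrophages, were at 40.7 ± 1.62 (C1qc), 40.2 ± 3.09 (C1qa) and 31.1 ± 0.779 (C1qb) TPM, and the protease Ctss at 28.9 ± 3.9. Among vascular genes, the receptor Kdr averaged 30.8 ± 2.1 TPM, the tight junction protein Cldn5 26.1 ± 0.522, the adhesion proteins Esam 18.1 ± 1.38 and Pecam1 14.7 ± 1.21. Smooth muscle actin Acta2 averaged 178 ± 5.35 TPM, Tagln 43.8 ± 1.49 and the smooth muscle myosin Myh11 32.5 ± 0.457. Each of these 3 varied by less than 3% in CPM between libraries. The remaining gene of that list, Cnn1, was lower and less steady: Myh11 was 8.43, 6.34 and 10.3 times its TPM in replicates 1, 2 and 3. Optc, opticin of the vitreous and ciliary body, averaged 75.9 ± 2.84 TPM and Myoc, myocilin of the outflow tissue, 50.9 ± 9.28. Krt4, another keratin of the conjunctiva, had 61.9, 34.3 and 53.8 CPM.

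Several listed genes were split between isoforms. Of the fragments of Myl1, 81.9 ± 0.452% were assigned to the shorter isoform NM_001113387 and 18.1 ± 0.452% to NM_021285. Of those of Nrl, 70.2 ± 3.73% went to NM_001136074 and the rest to NM_008736. Crygc fragments were split 54.0 ± 1.56% to NM_007775 and 46.0 ± 1.56% to NM_001082573. For Mitf, NM_008601 took 55.8, 75.5 and 70.1% in replicates 1, 2 and 3, a spread that limits any statement on its isoforms. Of 8 Tnnt3 isoforms, NM_001163670 took the largest share of fragments, with 43.5, 34.5 and 43.3%.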
